A study of Homo sapiens with 2 samples.

Results

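The peaks of HNRNPK on human chromosomes 3, 4 and 13 were taken as every peak of the deposited list placed on these 3 chromosomes, which gave 1582 of the 22351 peaks in all. Chromosome 3 held 750 of them, chromosome 4 held 727 and chromosome 13 held 105. The chromosomes were chosen on the measured number of peaks they carry, so their low peak density is a description and no finding. In ChIP-seq, an antibody pulls down a protein together with the DNA it is crosslinked to (IP), and this DNA is sequenced beside sheared DNA that saw no antibody (input). One HNRNPK IP library and 1 input library came from untreated H1299 cells, a human lung cancer line labelled as lung adenocarcinoma. There were no replicates, so no value carries a replicate error, no difference was tested, and the intervals given are 95% intervals that cover counting error only.

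HNRNPK belongs to the heterogeneous nuclear ribonucleoproteins, which coat newly made RNA in the nucleus. It binds nucleic acids through KH domains and prefers stretches rich in C, in RNA as well as in single-stranded DNA. It is known for roles in transcription, splicing and translation, and it is abundant in many tumours.

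Of the peaks, 4.80% lay within 1 kb of a gene start, beside 5.91% on the other chromosomes. The DNA under some of the peaks that reached a promoter can be shown. Of the RefSeq promoters of GRCh38.p14 on the 3 chromosomes, each running from 250 bases before to 50 bases after a gene start, 45 promoters of 42 genes were overlapped by a peak, among 4722 promoters of 3662 genes. The same count for the other chromosomes is not given here, so this one is not read as low or high. The sequences below are the parts of a peak that lie before a listed start of a protein-coding gene. A gene can have several listed starts, and some lie within its span. The stretches of TSC22D1 and ZNF148 lie before such an inner start and so inside the gene. They are given for the genes whose peaks had the highest pileup among those with at least 100 such bases, up to 3 genes for each chromosome. All are on the strand of the gene and read 5′ to 3′. Capitals mark matches on either strand. CCCC, the kind of stretch HNRNPK prefers, therefore also shows as its complement. The motif GCGAGG, which the study names, was marked in the same way, as was the motif CTAATG, which it names too.
EIF5A2, chr3:170908638-170908828, minus strand: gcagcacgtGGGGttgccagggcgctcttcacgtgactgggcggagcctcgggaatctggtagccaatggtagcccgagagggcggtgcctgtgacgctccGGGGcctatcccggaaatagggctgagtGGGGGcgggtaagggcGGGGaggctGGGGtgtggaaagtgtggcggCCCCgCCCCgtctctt
ZNF148, chr3:125374714-125374948, minus strand: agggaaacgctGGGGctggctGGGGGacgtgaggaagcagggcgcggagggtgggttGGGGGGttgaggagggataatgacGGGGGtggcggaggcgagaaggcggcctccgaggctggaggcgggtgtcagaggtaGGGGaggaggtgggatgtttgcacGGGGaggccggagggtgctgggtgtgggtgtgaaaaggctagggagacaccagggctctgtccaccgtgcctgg
JAGN1, chr3:9890447-9890609, plus strand: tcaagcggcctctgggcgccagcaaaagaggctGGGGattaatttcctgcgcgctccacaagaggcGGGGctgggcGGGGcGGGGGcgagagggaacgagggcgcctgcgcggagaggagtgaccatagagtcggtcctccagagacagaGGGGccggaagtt
ANAPC4, chr4:25377013-25377262, plus strand: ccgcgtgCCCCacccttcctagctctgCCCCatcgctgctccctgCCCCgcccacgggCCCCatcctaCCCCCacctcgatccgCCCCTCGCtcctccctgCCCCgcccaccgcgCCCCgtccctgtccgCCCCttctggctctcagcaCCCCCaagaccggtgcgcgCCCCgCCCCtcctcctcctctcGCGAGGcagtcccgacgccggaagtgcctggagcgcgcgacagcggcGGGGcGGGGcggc
KCTD8, chr4:44448810-44448994, minus strand: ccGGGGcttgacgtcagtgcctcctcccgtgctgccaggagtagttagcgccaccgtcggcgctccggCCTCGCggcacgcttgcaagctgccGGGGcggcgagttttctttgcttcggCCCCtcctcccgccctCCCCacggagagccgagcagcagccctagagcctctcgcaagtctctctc
CCNI, chr4:77076086-77076239, minus strand: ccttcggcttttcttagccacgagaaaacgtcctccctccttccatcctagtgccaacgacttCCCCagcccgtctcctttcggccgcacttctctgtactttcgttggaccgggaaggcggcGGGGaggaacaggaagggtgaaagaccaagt
TSC22D1, chr13:44436920-44437108, minus strand: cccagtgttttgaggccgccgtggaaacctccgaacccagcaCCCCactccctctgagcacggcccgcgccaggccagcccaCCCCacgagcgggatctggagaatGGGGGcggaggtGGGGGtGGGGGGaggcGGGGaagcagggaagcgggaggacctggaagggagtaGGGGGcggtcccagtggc
SLITRK5, chr13:87671121-87671260, plus strand: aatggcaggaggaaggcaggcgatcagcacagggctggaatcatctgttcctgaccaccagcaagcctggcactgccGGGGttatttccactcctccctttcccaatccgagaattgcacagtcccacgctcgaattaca
EIF5A2 encodes a translation factor, ZNF148 a zinc finger transcription factor and JAGN1 a membrane protein of the endoplasmic reticulum. ANAPC4 encodes a subunit of the anaphase-promoting complex, KCTD8 a partner of GABA-B receptors and CCNI a cyclin. TSC22D1 encodes a transcription regulator that responds to TGF-beta, and SLITRK5 a synaptic membrane protein.

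All of the 8 stretches held CCCC on at least 1 strand, from 1 match in SLITRK5 to 16 matches in ANAPC4. GCGAGG was found 2 times in the ANAPC4 stretch and 1 time in the KCTD8 stretch, and CTAATG in none of the 8. Among the 45 promoters under a peak, 13 held GCGAGG (28.9%), beside 22.04% of all 35116 promoters of the same length in the genome and 20.6% of those on the 3 chromosomes. A promoter counted from 1 base of overlap, as for LYAR, so a match need not lie under the peak. The CAMK1 promoter, with 1 match to GCGAGG, was overlapped by only 2 bases. Some of the 45 promoters shared a gene or a peak. CCCC was in 100.0% of the 45 promoters and in 89.6% of all promoters. TCCC, another C-rich stretch, was in 100.0% and 95.98%, and overlaps CCCC where a run of C follows a T. CTAATG was in 1 of the 45 promoters (2.22%), that of GPM6A, beside 6.49% of all promoters. The promoters under a peak also had a median GC content of 65.0%, against 58.7% for all promoters, and the part of base composition in these shares was not tested. A match is a description of the letters and not a binding site.

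The pileup of a peak is the IP coverage in it, in scaled fragments, and 1 fragment is worth 0.9735 units of it. The peak of EIF5A2 had a pileup of 9.73, or 10 fragments, with a fold enrichment of 4.43 over the local background and an FDR of 0.0302. At JAGN1 the pileup was 8.76 and the FDR 0.0243. The peak at ANAPC4 had the highest pileup of the 8, 10.7, but an FDR of 0.0705. The other 5 stretches lay under peaks with FDR values from 0.101 to 0.605, so 2 of the 8 peaks passed an FDR of 0.05, as did 15.5% of the whole list. Over all promoters under a peak, 17 peaks were involved on chromosome 3, 15 on chromosome 4 and 4 on chromosome 13, of which 5, 1 and 0 had an FDR under 0.05, and over the 3 chromosomes this is near the share of the whole list.

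Between the outermost gene or peak at either end, the 3 chromosomes held 3.26 peaks per Mb (3.11 to 3.43), and the other 21 chromosomes together held 8.10. Chromosome 13 had 1.09 peaks per Mb (0.893 to 1.32), chromosome 3 had 3.78 (3.52 to 4.06) and chromosome 4 had 3.82 (3.55 to 4.11). In the order of all 24 chromosomes from the lowest density, they stood at places 2, 4 and 5. Chromosomes Y, with 0.106 peaks per Mb, and X, with 1.43, were sparser than chromosomes 3 and 4 but were not among the 3 chosen. The next above them was chromosome 18 with 3.93 (3.50 to 4.38), whose interval overlaps those of chromosomes 3 and 4. Protein-coding genes were also fewer, at 5.37 per Mb on chromosome 3, 4.02 on chromosome 4 and 3.49 on chromosome 13, against 6.99 on the other chromosomes. Per protein-coding gene there were 0.705 peaks on chromosome 3, 0.952 on chromosome 4 and 0.312 on chromosome 13, against 1.16 elsewhere. Chromosome 19, the densest, had 37.5 peaks per Mb, 24.1 genes per Mb and 1.56 peaks per gene.

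The peaks were far from evenly shared between the arms. Taking the centromere at 91 Mb, the long arm of chromosome 3 (3q) held 535 peaks and the short arm (3p) 215, or 4.99 (4.58 to 5.43) and 2.36 (2.06 to 2.70) peaks per Mb. On chromosome 4, with the centromere at 50 Mb, the order was the opposite. The short arm (4p) held 552 peaks in 49.9 Mb, or 11.1 per Mb (10.15 to 12.01), and the long arm (4q) held 175 peaks in 140.2 Mb, or 1.25 per Mb (1.07 to 1.45). Thus 71.3% of the peaks of chromosome 3 but 24.1% of those of chromosome 4 were on the long arm, and the share of 48.1% over both chromosomes hides this. The density of 4p was above that of the other chromosomes together, and 4q was as sparse as chromosome 13, whose peaks all lay on its long arm (13q). Protein-coding genes do not differ as much between the arms, at 5.48 per Mb on 3p, 5.27 on 3q, 4.87 on 4p and 3.72 on 4q.

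The local background, recovered from the pileup and the fold enrichment of each peak, moved with the arms. The lowest value it takes in the list is 1.05, and 81.0% of the peaks on 13q, 65.6% on 3p and 64.0% on 4q stood within 0.01 of it. On 3q and 4p the share was 16.8% and 10.1%. The median background was 1.05 on 3p, 4q and 13q, against 1.23 on 3q and 1.35 on 4p. The arms with more peaks were thus the arms where the peaks stood on a higher background, and the part of the background or of the number of DNA copies in the density of peaks was not tested.

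In bins of 1 Mb from the first base, 172 of the 505 bins held no peak (34.1%). They were 56 of 199 bins on chromosome 3, 53 of 191 on chromosome 4 and 63 of 115 on chromosome 13, where 18 bins lie on the short arm without any placed gene. Of the bins that hold a gene, 27.8% (22.01% to 34.4%) were empty on chromosome 3, 27.0% (21.2% to 33.7%) on chromosome 4 and 46.4% (36.8% to 56.3%) on chromosome 13, beside 13% on the other chromosomes together. Single chromosomes among these spread widely, and chromosome 18, next in density, had 25.97% (17.5% to 36.7%), close to chromosomes 3 and 4, while chromosome 14 had 22.2% and chromosome X 49.02%. All 50 bins of 4p held a peak, while 53 of the 141 bins of 4q held none. Of the 172 empty bins, 103 held the midpoint of at least 1 protein-coding gene. In the bins with a gene, the number of peaks and the number of protein-coding genes had a Spearman correlation of 0.476 over 484 bins, with 0.556 over 198 bins of chromosome 3, 0.548 over 97 bins of chromosome 13 and 0.354 over 189 bins of chromosome 4. By arm it was 0.656 on 3p, 0.461 on 3q, 0.651 on 4p and 0.426 on 4q, so both arms of chromosome 4 stood above the value from pooling them. Bins of 1 chromosome share the library and neighbour each other, so these correlations are descriptions only.

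The fullest bins lay close together, and the runs of bins given here were chosen by their counts. The fullest run of 10 bins in an arm was the first 10 Mb of chromosome 4, which held 319 peaks, or 43.9% of the peaks of that chromosome in 5.26% of its span, and 129 protein-coding genes. The bin from 1 to 2 Mb held 57 peaks, the most of the 505 bins, and 34 of them lay in protein-coding genes such as FAM53A, MAEA and TACC3. The bin from 7 to 8 Mb held 52 peaks, 47 of them in protein-coding genes, with most of them in SORCS2. On chromosome 3, the fullest run of 30 bins, from 122 to 152 Mb on 3q, held 260 peaks (34.7%) and none of these bins was empty, with KALRN, CHCHD6, PLXNA1, EEFSEC and EPHB1 among the genes that carried them. The last 6 bins of chromosome 3, from 193 Mb, held a further 99 peaks (13.2%), and the bin from 195 Mb, which holds the mucin gene MUC4, was the fullest of the chromosome with 29 peaks. On chromosome 13 the bin from 113 Mb held 11 peaks, the most of that chromosome, in genes such as RASA3, CUL4A, GAS6 and PROZ.

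Seen from the centromere outward, the shares of peaks and of genes were close in some steps of an arm and apart in many others. On 4p the outermost step of 10% held 29.7% of the peaks and 30.5% of the genes of the arm. On 3p the fifth step from the centromere, around the gene-rich band that holds SETD2, MAP4 and CACNA1D, had 34.4% of the peaks and 36.3% of the genes, but step 9 had 24.2% and 15.6%, and step 3 had 1.40% and 5.41%. On 3q the shares were mostly apart. Its first 3 steps had 1.12%, 1.12% and 2.24% of the peaks but 7.61%, 5.84% and 13.1% of the genes, while its steps 4, 5 and 10 had 25.4%, 17.4% and 21.3% of the peaks and 15.4%, 10.4% and 12.4% of the genes. On 4q the second step had 8% of the peaks and 19.2% of the genes, and step 4 had 16.6% and 9.60%. On 13q the innermost step had 23.8% of the peaks and 14.9% of the genes, and the outermost one 21.0% and 15.5%. Steps 2, 3 and 4 had like shares of the genes, 14.3%, 15.5% and 14.0%, but only 11.4%, 11.4% and 7.62% of the peaks.

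The longest stretch without a peak within an arm was on 3p and ran for 9.49 Mb, from base 75669400 to base 85154579 of chromosome 3. It held 4 protein-coding genes whole, among them ROBO1 and ROBO2, the receptors of the axon guidance cue SLIT, and GBE1, the glycogen branching enzyme. FRG2C ends just before it and CADM2, a cell adhesion gene, crosses its far end. The second longest of 3p, with 7.32 Mb from base 58667019 to base 65982849, held 14 protein-coding genes, including FHIT, which lies on a fragile site often lost in lung cancer, and PTPRG, a receptor phosphatase. In the emptiest run of 30 bins on 3p, from 59 to 89 Mb, 23 bins had no peak, and the run held 12 peaks and 54 protein-coding genes. On 3q the longest stretch was 5.65 Mb, between NFKBIZ and CD47, with ALCAM and CBLB inside it and BBX across its far end.

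On 4q the longest free stretch was 6.76 Mb, from base 131072158 to base 137827851, with 3 protein-coding genes inside it, PCDH10, PABPC4L and PCDH18. It lies between C4orf33 and SLC7A11, which encodes the cystine transporter. Not all free stretches were poor in genes. One of 5.98 Mb on 4q, from base 67348988 to base 73333723, held 51 protein-coding genes whole, or 8.52 per Mb, more than the 3.72 per Mb of the arm. Its genes include families that act in few tissues, such as the UGT2B enzymes of glucuronidation, the caseins CSN2 and CSN3, the salivary genes STATH and HTN1, and the enamel genes AMBN and ENAM. Others in it, such as CENPC, UBA6, YTHDC1, DCK and ANKRD17, belong to none of these groups. Expression was not analysed here. On 4p, by contrast, the longest stretch was only 1.77 Mb, across the GABA receptor genes GABRA2, GABRA4 and GABRB1, between GABRG1 and NIPAL1.

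Chromosome 13 had its longest stretches side by side. The first ran for 6.74 Mb from base 58241537 to base 64986319, between PCDH17 and PCDH9, and held DIAPH3, TDRD3 and PCDH20 among 5 protein-coding genes. A single peak of 233 bases, whose pileup was 8.76 and whose FDR was 0.0243, parted it from the next, which ran for 6.63 Mb and held PCDH9 and KLHL1. The third, of 5.91 Mb, held 14 protein-coding genes, including FGF14, the DNA repair gene ERCC5 and the ephrin gene EFNB2. In the emptiest run of 30 bins, from 52 to 82 Mb, 22 were empty and 10 peaks were listed. Free stretches of at least 1 Mb made up 72.2% of the span of chromosome 13, 54.3% of that of chromosome 4 and 47.9% of that of chromosome 3, and held 42.9%, 37.2% and 22.7% of the protein-coding genes of these chromosomes.

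The plot of distances shows that the curves of chromosomes 3 and 4 cross. The median distance was shorter on chromosome 4, but 49 of its distances were of at least 1 Mb, against 40 on chromosome 3. Within arms the medians were 27.2 kb on 4p and 392 kb on 4q, and 108.9 kb on 3p and 67.3 kb on 3q. Fewer than 1 kb parted 23 pairs of neighbours on chromosome 3, 30 on chromosome 4 and 3 on chromosome 13. Joining such neighbours left 727, 697 and 102 peaks.

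Most peaks rested on few fragments. The median pileup was 6.81 over the 3 chromosomes, which is 7 fragments, and it was 6.81 on chromosome 3, 7.79 on chromosome 4 and 6.81 on chromosome 13, against 7.79 on the other chromosomes. The lowest pileup was 4.87, or 5 fragments, on each of the 3. Peaks of 5 to 7 fragments made up 52.7% (49.1% to 56.2%) on chromosome 3, 45.1% (41.5% to 48.7%) on chromosome 4 and 67.6% (58.2% to 75.8%) on chromosome 13, beside 39.6% elsewhere. By arm the share was 40.04% on 4p and 48.4% on 3q but 61.1% on 4q and 63.3% on 3p. The arms with few peaks were thus also those whose peaks held the fewest fragments. At the lowest background fewer fragments are enough for a given fold enrichment, so pileup and background are not independent of each other.

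Fold enrichment had close medians, of 3.61 on chromosome 3, 3.57 on chromosome 4 and 3.82 on chromosome 13, against 3.58 on the other chromosomes. Peak length had medians of 262, 261 and 234 bases, and 49.5% of the peaks of chromosome 13 had the lowest length in the list, 233 bases, beside 31.7% elsewhere. An FDR under 0.05 was given to 230 of the 1582 peaks, or 14.5% (12.9% to 16.4%), where the whole list had 15.5%. The count was 113 on chromosome 3 (15.1%), 107 on chromosome 4 (14.7%) and 10 on chromosome 13 (9.52%, 5.26% to 16.7%). The share on the 3 chromosomes was near that of the whole list, and the interval of chromosome 13 includes it.

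Most of the 12 highest pileups of each chromosome lay outside protein-coding genes. Several were close to a chromosome end or a centromere, for which no distance was fixed in advance. Others were not, such as those from base 146732743 of chromosome 3, base 19082225 of chromosome 4 and base 57146121 of chromosome 13. On chromosome 4 the highest was 91.5, or 94 fragments, in a peak of 442 bases from base 190122642, 50.9 kb from DUX4, a gene that sits in a tandem repeat at the end of 4q. Its fold enrichment was 6.17 and its local background 14.0. On chromosome 3 the highest was 61.3, in the pseudogene DUX4L26 on 3p, where the background was 25 and the fold enrichment only 2.40. A peak of 566 bases near the end of 3q, from base 197459476, had a pileup of 57.4 with the highest fold enrichment of the 3 chromosomes, 8.35. On chromosome 13 the highest was 16.55, in a peak from base 114354081 near the end of 13q. Reads from near-identical copies cannot be told apart in a peak list, and their part in these pileups was not tested.

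The bin of chromosome 4 from 49 Mb, next to the centromere, joined many peaks with a high background. It held 30 peaks but 0 of them in a protein-coding gene, a median pileup of 14.6 and a median background of 3.69. Of the 30 peaks, 5 had at least 20 fragments, against 4 of the other 697 peaks of chromosome 4. An FDR under 0.05 was given to 11 of the 30 (36.7%, 21.9% to 54.5%), beside 13.8% of the other 697 and 15.5% of the whole list. This bin was picked for its peaks, so the difference was not tested. The bin from 190 Mb, at the end of 4q, had higher medians of pileup and background, 23.4 and 4.999, but over 3 peaks only, also with 0 in a protein-coding gene.

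Among the peaks that lie in a protein-coding gene, pileups were lower. The highest on chromosome 4 was 24.3, in AFAP1, whose product links actin filaments, with a fold enrichment of 3.17 and an FDR of 0.00316. Next came 2 peaks in the zinc finger gene ZNF595 and 1 in ZFYVE28, a regulator of EGF receptor signalling, each with a pileup of 13.6. The FDR was 0.0108 for 1 of the ZNF595 peaks but 0.226 for the other and for the ZFYVE28 peak. A peak in the lysosomal mannosidase gene MAN2B2 had a pileup of 12.7 (FDR 0.000805), the same pileup as 1 in PDE6B. On chromosome 3 a peak in BFSP2, a lens filament gene, and a peak in MLF1, a myeloid leukaemia factor, shared the highest pileup, 12.7, at an FDR of 0.00506. BFSP2 held a further peak with a pileup of 11.7 (FDR 0.0219), and a peak in LOC112268458 had the same pileup (FDR 0.0571). A peak in the kinase-like gene ULK4 followed, with an FDR of 0.000671 and a pileup of 10.7 that 11 peaks shared. On chromosome 13 the highest was 9.73 in PROZ, the gene of the coagulation protein Z, with an FDR of 0.00675, and then 8.76 in ZDHHC20, which encodes a palmitoyltransferase. CDK8, a kinase of the Mediator complex, FLT1, a VEGF receptor, and TNFSF11, the bone-resorption cytokine RANKL, were next with 7.79 each and an FDR of 0.101, a pileup shared by 9 of the peaks in genes of this chromosome.

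A protein-coding gene held 736 of the 1582 peaks, a share of 46.5% (44.1% to 48.99%), beside 51.3% on the other chromosomes. The share was 57.7% on 3p, 43.4% on 3q, 50.2% on 4p, 34.3% on 4q and 41.0% on 13q. A further 204 peaks lay in a long non-coding RNA gene only (12.9%, 11.3% to 14.6%), beside 9.73% on the other chromosomes. In no annotated gene were 610 peaks, or 38.6% (36.2% to 41.0%), beside 35.96% on the other chromosomes. These differences were not tested. Within 1 kb of a gene start in the promoter table there were 76 peaks (4.80%, 3.86% to 5.97%), beside 5.91% elsewhere.

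The peaks fell on 417 of 2164 protein-coding genes, or 19.3% (17.7% to 21.0%), where 29.3% of the protein-coding genes of all 24 chromosomes held a peak. It was 237 genes on chromosome 3 (22.3%), 140 on chromosome 4 (18.3%) and 40 on chromosome 13 (11.9%). Of the 417 genes, 283 held 1 peak, 62 held 2 and 72 held at least 3. Genes with a peak were longer, with a median length of 86.7 kb against 32.5 kb for genes without one. Of the genes under 10 kb, 4.76% held a peak, and of those of 200 to 500 kb, 42.5%. On the other chromosomes these shares were 12.4% and 63.0%. Lower shares go with a choice of chromosomes that carry few peaks, and the difference was not tested.

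SORCS2, a sorting receptor of neurons on 4p, held 35 peaks in 550.3 kb, more than any other of the 19866 protein-coding genes placed. They made up 10.4% of the peaks in protein-coding genes of chromosome 4, with a median distance of 9.24 kb between neighbours. Its peaks were of ordinary height, with pileups from 4.87 to 10.7 and a median of 6.81, and 5 of the 35 had an FDR under 0.05, about the share of chromosome 4 (14.7%) and of the whole list (15.5%). The median background of these peaks was 1.21. Among other genes of 4p with many peaks, PPP2R2C, a regulatory subunit of phosphatase 2A, held 10, and FAM53A, like the G-protein regulator RGS12, held 8. The density in SORCS2 was 6.36 peaks per 100 kb.

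On chromosome 3 the genes with the most peaks were KALRN, a gene of neurons, with 13 peaks in 693.0 kb, and the ephrin receptor gene EPHB1 with 8. CHCHD6, a mitochondrial cristae gene, and CACNA1D, a calcium channel gene and the only one of these on 3p, held 6 each. KALRN had 1.88 peaks per 100 kb, a density well below that of SORCS2. On chromosome 13 no gene held more than 3 peaks. RASA3, a Ras GTPase-activating protein gene, held 3 and FLT1 held 2, and the other 38 genes held 1 each.

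Many of the longest genes held no peak, although the share with a peak was higher among longer genes. Of the 65 protein-coding genes of at least 500 kb on the 3 chromosomes, 31 held a peak (47.7%, 36.0% to 59.6%), where 67.9% of such genes of all chromosomes did. Those without any included ROBO2 with 1743 kb, FHIT with 1504 kb, GPC5, a glypican gene, with 1469 kb, and NAALADL2 with 1370 kb. On chromosome 13 only 3 of 13 such genes held a peak. Of 41 genes in a list made for these chromosomes, chosen mainly for length or for roles in adhesion and neurons, 12 held a peak (29.3%, 17.6% to 44.5%), where 19.3% of all protein-coding genes of the 3 chromosomes did, and SORCS2 carried 35 of the 54 peaks. The median length in this list was 704 kb, but some members are short, such as SLITRK5 with 8.25 kb. Of all protein-coding genes of 200 to 500 kb on the 3 chromosomes, 42.5% held a peak, and of those of at least 500 kb, 47.7%. The share of the list was thus above that of all genes and below those of these long genes. No share given here is matched to the lengths in the list, and the differences were not tested. After SORCS2 came the adhesion gene CADM2 with 3 peaks, the highest with a pileup of 10.7, and genes with 2 peaks such as the teneurin gene TENM3.

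The counts of the lists of genes of cancer interest are descriptions, and they were not tested. Of 22 genes on 3p, chosen mainly as tumour suppressor genes or candidates, 3 held 1 peak each (13.6%, 4.75% to 33.3%). They were CACNA2D2, DLEC1 and the histone methyltransferase gene SETD2, with pileups of 6.81, 5.84 and 6.81 and no FDR under 0.290. RASSF1, VHL, BAP1 and PBRM1 were among those with 0. Of 17 genes of 3q, chosen mainly as genes often gained in lung cancer, 6 held a peak (35.3%, 17.3% to 58.7%), with 17 peaks in all. LPP held 5, FGF12 4 and MUC4 3, while TP63 held 2 and PIK3CA, the catalytic subunit of a PI3 kinase, held 1 at a pileup of 8.76 (FDR 0.0243). SOX2 and TERC held 0. The genes of the lists had median lengths of 45.3 kb and 65.2 kb. Of all protein-coding genes of chromosome 3 with 10 to 50 kb and 50 to 200 kb, 17.9% and 28.6% held a peak. The interval of the 3p list includes the former share and that of the 3q list the latter, and 3q has more peaks per Mb than 3p.

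Of 29 genes of chromosome 4, chosen mainly for signalling, 6 held a peak (20.7%, 9.85% to 38.4%), where 18.3% of all protein-coding genes of the chromosome and 25.5% of those of 50 to 200 kb did. LIMCH1 held 4 peaks, NSD2 3 and MAPK10, a stress kinase, 2, all with a pileup of at most 7.79. The receptor genes KIT, PDGFRA, KDR and FGFR3 held 0, although FGFR3 lies in the first 10 Mb of 4p. Of 26 genes of chromosome 13, chosen mainly for cell cycle, repair and growth, 7 held a peak (26.9%, 13.7% to 46.1%). FLT1 held 2, and CDK8, CUL4A and IRS2 were among those at 1. The list also has DLEU1 and DLEU2, which do not code for protein and held 0. RB1 and BRCA2 held 0. Of all protein-coding genes of chromosome 13, 11.9% held a peak, and of those of 50 to 200 kb, 14.7% (9.36% to 22.2%). The members of these lists were chosen with earlier results known, so such differences are not read further. CLCN3 on 4q, the gene the study is about, held 0 peaks and lay in a free stretch of 532.7 kb, which 90 of the 726 free stretches of chromosome 4 exceeded. The nearest listed peaks were 334.4 kb below and 95.2 kb above the gene, so none lay at its promoter. The paper reports HNRNPK enrichment at the CLCN3 promoter from its ChIP-seq. It also gives DNA pull-down, ChIP-qPCR and luciferase reporter results for this promoter. The cause of the difference from the list was not tested.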

How the data were processed

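HNRNPK ChIP-seq of untreated H1299 cells was analysed from 1 IP and 1 input library, as 1 list of peaks that sets the IP against the input. The submitters' processing notes name Trimmomatic 0.36, STAR 2.5.3a, MACS2, bedtools, HOMER and GRCh38. The deposited pileup is a signal, the IP coverage in scaled fragments. The deposited fold enrichment is a ratio, that coverage over the background around the peak. A p-value and an FDR for each peak came from the authors' peak caller. The peak names write A1299, and the peaks were read as those of the IP from H1299 cells. Depth per library was not analysed here.

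Adding 1 to the pileup, dividing by the fold enrichment and taking 1 away gave the local background. Peaks were placed by their midpoint on RefSeq gene spans of GRCh38.p14. Of 59792 genes, 58961 were placed on chromosomes 1 to 22, X and Y, and 831 rows, most of them on contigs or out of order in the table, were left out. Spans, bins of 1 Mb and densities include assembly gaps. Arms were split at 91 Mb (chromosome 3), 50 Mb (chromosome 4) and 18 Mb (chromosome 13). Intervals are Wilson for shares and exact Poisson for densities. The functions were tested on simulated data.

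The genes named were, for each chromosome, those of the 5 peaks with the highest pileup in a protein-coding gene, the 4 genes with the most peaks, the coding genes next to the longest free stretch of an arm, and members of 5 lists with a peak. Genes inside free stretches, list members without a peak, long genes without a peak, genes in full bins, genes of promoters shown and peaks outside genes were picked with their values in view. On chromosome 13, 38 genes tied at 1 peak, and only those above it were named. A few genes that these rules pick are not reported here. The members and lists were chosen with earlier results of these data known. Alternatives were an FDR threshold, merged peaks, other bins, other arm boundaries and other gene rules. Python 3.11.15, numpy 2.4.6, pandas 2.3.3, scipy 1.17.1 and matplotlib 3.10.9 were used.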

Additional observations from a re-analysis of the deposited data

How the results depend on the processing

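Of 28 alternatives, 15 left a value within its counting interval, or within 1.5 times for counts and lengths, and 13 moved it. The median pileup has no such limit. Its change from 6.81 to 7.30 on joining close peaks was counted as within, and that to 9.73 as moved. Keeping only peaks with an FDR under 0.05 moved each of the 7 values it was applied to, which leaves 230 peaks by construction. The density went from 3.26 to 0.475 peaks per Mb, the share of empty bins to 77.0%, the longest free stretch to 31.9 Mb, the share on the long arms of chromosomes 3 and 4 to 51.8%, the median pileup to 9.73, the share in a protein-coding gene to 41.7% and the number of genes with a peak to 80. With these peaks 3q still had more peaks than 3p (88 and 25) and 4p more than 4q (81 and 26). Bins of 0.5 Mb gave 49.95% empty bins and bins of 2 Mb 19.3%. Setting the arm boundary 2 Mb lower gave 50.6% on the long arms, since the peaks next to the centromere of chromosome 4 then counted with 4q. An FDR threshold of 0.01 gave 4.61% of peaks and one of 0.1 gave 17.8%. Counting all RefSeq genes put 61.4% of peaks in a gene. Leaving out the bin of chromosome 4 from 49 Mb, and using only bins with a gene, were chosen after seeing the data and moved no value beyond these limits. The motif counts had no alternative. No paired analysis was possible because there was 1 IP and 1 input library. Peaks of 5 to 7 fragments limit what a single peak can show.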

Other observations

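Among genes that do not code for protein on the 3 chromosomes, the long non-coding RNA gene LOC105374510 on 4p held the most peaks, 5 in 428.2 kb. Genes with 4 peaks were the long non-coding RNA genes IL12A-AS1, which runs by the cytokine gene IL12A, and SLC7A14-AS1 on 3q and LINC00504, LOC105369250 and LOC124900690 on 4p, and the transcribed pseudogenes LRRC78P and SDHAP1 on 3q. SDHAP1, a copy of a mitochondrial succinate dehydrogenase gene, is the shortest of these, with 30.4 kb. Of the microRNA genes and other small RNA genes annotated on the 3 chromosomes, only MIR8075 on 13q, which lies within the span of CUL4A, was overlapped by a peak, whose pileup was 6.81 and whose FDR was 0.290. The number of such genes and the share overlapped elsewhere are not given here, so this is no result about small RNA genes.

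The values of the peaks are coarse. The 1582 peaks share 162 different FDR values, and the cause of the ties was not tested. Of the 12 peaks with the highest pileup on chromosome 13, those ranked 5 to 11 all had 9 fragments and an FDR of 0.0243, so their order carries no information.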
